A study of Mus musculus with 6 samples.

Results

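The 10 Toll-like receptor genes *Tlr1* to *Tlr9* and *Tlr13* were taken by symbol from the 21358 entries of the deposited expression table, where each of the 10 symbols was found once. They were measured by RNA-seq in B16-F10 melanomas harvested whole at day 12 from C57/BL6 hosts, 3 that had ACT + IL-2 (IL-2 tumors hereafter) and 3 that had ACT + NKTR-214 (NKTR-214 tumors). All 6 hosts were females of 6 to 8 weeks that received 500 cGy of total body irradiation and then, once tumors reached 150 mm3, an adoptive cell transfer (ACT) of 2000000 splenocytes from pmel-1 mice, whose CD8 T cells carry a transgenic receptor for the melanoma antigen gp100. The splenocytes were not sorted, had been activated with gp100 peptide and carried the Thy1.1 allele. The dose of IL-2 was 0.4 mg/kg, repeated daily over 3 days per 9-day cycle, and that of NKTR-214, IL-2 with releasable polyethylene glycol chains, was 0.8 mg/kg, given once in a cycle. Both groups received transferred T cells and a form of IL-2, and the groups differed in the form, dose, schedule and route of the cytokine (intraperitoneal for IL-2, intravenous for NKTR-214), which cannot be told apart. No untreated tumor enters it.

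Toll-like receptors are germline-encoded sensors of microbial and self molecules, expressed mainly by macrophages, dendritic cells and other myeloid cells and, for some members, by B cells, fibroblasts, epithelium or tumor cells. Receptors at the cell surface bind lipids and proteins of microbes: TLR2 works as a heterodimer with TLR1 or TLR6 on bacterial lipopeptides, TLR4 with MD-2 and CD14 senses lipopolysaccharide, and TLR5 senses flagellin. Receptors of the endosome bind nucleic acids: TLR3 binds duplex RNA, TLR7 and TLR8 bind degradation products of RNA strands, TLR9 binds DNA with unmethylated CpG and TLR13 binds bacterial ribosomal RNA. TLR3 signals through the adaptor TRIF, TLR4 through both TRIF and MyD88, and the others through MyD88.

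The expression unit is FPKM, fragments scaled to exon length and to the number of mapped fragments, which allows levels of different genes to be compared. From the spacing of low values, the libraries were estimated to hold 20900000 to 24700000 mapped reads. The members rested on an estimated 15 to 2200 reads per tumor, with *Tlr5* the lowest (15 to 103 reads). The FPKM sum of all entries was lowest in IL-2 replicate 2 (176420, against 217581 to 246514 in the other libraries). All 7 melanocyte markers were expressed in every tumor, 5 of them were lower in NKTR-214 tumors, and *Pmel*, which encodes gp100, had 605 to 1564 FPKM. The summed melanocyte markers had 5413 to 6933 FPKM in IL-2 tumors and 2664 to 3763 FPKM in NKTR-214 tumors. Replicates were separate mice.

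NKTR-214 tumors had higher levels of 6 of the 10 Toll-like receptor genes and lower levels of none at an adjusted p under 0.05. The genes that rose were *Tlr1*, *Tlr2* and *Tlr6*, which encode the chains of the lipopeptide receptors, and *Tlr7*, *Tlr8* and *Tlr13*, which encode RNA receptors of the endosome, by 2.67-fold (*Tlr2*) to 4.04-fold (*Tlr13*) in mean FPKM. *Tlr3*, *Tlr4*, *Tlr5* and *Tlr9* did not pass the threshold. Expression was compared with limma on log2(FPKM + 1) over the 14172 genes with a mean of at least 0.1 FPKM, a minimum that all 10 members met, with Benjamini-Hochberg adjustment over all of them. In that fit 20.7% of all genes were called higher and 8.28% lower, so 71.5% of the called genes were higher, against 46.8% after 75th percentile scaling and 37.0% after quantile normalization. At an unadjusted p under 0.05, 9 members were higher and 0 were lower, against 26.2% and 13.2% of all genes. With each gene's variance taken from its own 6 values alone, 0 members passed, and of all genes 0.713% passed as higher and 0.191% as lower. Differences are given as the log2 change of FPKM + 1, NKTR-214 minus IL-2, with its standard error (SE). The added 1 shrinks the log2 change of genes with low FPKM. In whole-tumor RNA, more cells of a type and more RNA per cell cannot be told apart.

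**Figure D1:**
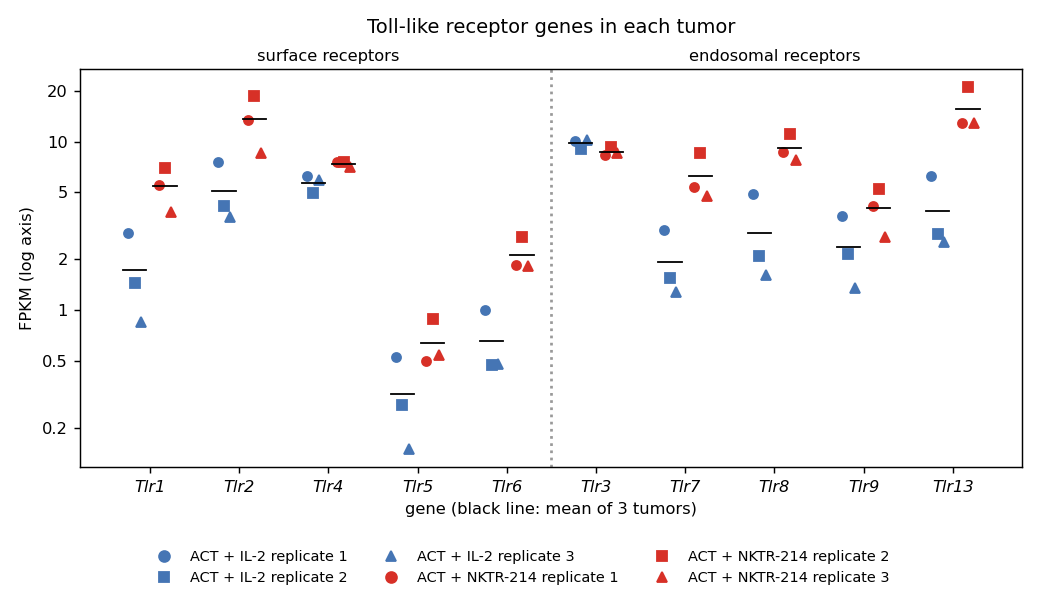
FPKM of the 10 Toll-like receptor genes on a log axis, with blue symbols for the 3 IL-2 tumors, red symbols for the 3 NKTR-214 tumors and a black line at each group mean. The groups do not overlap for Tlr1, Tlr2, Tlr4, Tlr6, Tlr7, Tlr8 and Tlr13, and they overlap for Tlr3, Tlr5 and Tlr9.

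Of the 10 members, 7 had all NKTR-214 tumors above all IL-2 tumors, against 27.1% of all genes tested, and 0 had the reverse order, against 15.3%. The tumors of a group kept a similar order across members. Within IL-2 tumors, replicate 1 was the highest tumor for 9 of the 10 genes, with *Tlr3* as the exception, and within NKTR-214 tumors, replicate 2 was the highest for all 10. The 12 macrophage and monocyte markers were each highest in these same libraries of their groups.

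Among the surface receptors, *Tlr2* (chromosome 3, 83836272 to 83841767, minus strand; GENCODE vM21 on GRCm38, as for all members, each of them protein coding) had the highest level in NKTR-214 tumors. In the order of replicates 1 to 3, which holds for all values listed by tumor, its FPKM was 7.52, 4.14 and 3.57 in IL-2 tumors and 13.4, 18.6 and 8.57 in NKTR-214 tumors. The lowest NKTR-214 tumor, replicate 3, lay just above the highest IL-2 tumor. The mean rose 2.67-fold, from 5.08 ± 2.13 to 13.5 ± 5.02 FPKM (SD, n = 3 per group), with a log2 change of 1.25 (SE 0.25, limma adjusted p = 0.00128). Without IL-2 replicate 2, the log2 change was 1.16 and the limma adjusted p was 0.0555.

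*Tlr1* (64924679 to 64933563) and *Tlr6* (64952031 to 64960097), the partner chains of TLR2, lie beside each other on the minus strand of chromosome 5. *Tlr1* had 2.86, 1.45 and 0.847 FPKM in IL-2 tumors and 5.55, 6.93 and 3.82 FPKM in NKTR-214 tumors. The groups did not overlap, and the log2 change was 1.28 (SE 0.24, limma adjusted p = 0.000666), a 3.16-fold higher mean. *Tlr6* was lower in level, with 1.00, 0.471 and 0.479 FPKM in IL-2 tumors and 1.84, 2.72 and 1.83 FPKM in NKTR-214 tumors. It rose 3.28-fold in the mean, again without overlap, with a log2 change of 0.93 (SE 0.15, limma adjusted p = 0.000238).

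The ratio of *Tlr1* to *Tlr6* FPKM overlapped between the groups, at 1.77 to 3.07 in IL-2 tumors and 2.09 to 3.01 in NKTR-214 tumors. The 2 transcripts share sequence: 15.4% of the 50-base windows of *Tlr1* and 12.3% of those of *Tlr6* also occur in other annotated genes, mostly in each other. A 50-base read from such a window cannot be placed in one of the genes, so their levels are uncertain to that extent. How the authors counted such reads is not given in the sources used here. The longest run that the transcripts share has 229 bases, all coding, at chr5:64925537-64925765 in *Tlr1* and chr5:64953828-64954056 in *Tlr6* (GRCm38, minus strand), and is shown because no read inside it separates these neighbours.
Tlr1 and Tlr6 shared run: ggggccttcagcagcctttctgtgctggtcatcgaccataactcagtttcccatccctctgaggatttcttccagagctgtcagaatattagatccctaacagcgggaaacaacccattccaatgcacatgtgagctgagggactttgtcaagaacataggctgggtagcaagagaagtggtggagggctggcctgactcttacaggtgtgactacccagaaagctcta

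*Tlr4* (chromosome 4, 66827584 to 66930284, plus strand), the lipopolysaccharide receptor, had a smaller log2 change. Its level was 6.26, 4.93 and 5.94 FPKM in IL-2 tumors and 7.52, 7.61 and 7.08 FPKM in NKTR-214 tumors. The groups did not overlap, and the tumors of each were close together. The log2 change of 0.33 (SE 0.15, 95% confidence interval 0.01 to 0.65) did not pass (limma adjusted p = 0.112), whereas it passed with libraries scaled to a common 75th percentile (limma adjusted p = 0.0204) and with quantile normalization (limma adjusted p = 0.0386).

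*Tlr5* (chromosome 1, 182954788 to 182976044, plus strand), the flagellin receptor, had the lowest level of the family in each tumor. It had 0.525, 0.274 and 0.150 FPKM in IL-2 tumors and 0.495, 0.886 and 0.541 FPKM in NKTR-214 tumors. IL-2 replicate 1 lay within the range of the NKTR-214 tumors. The log2 change was 0.32 (SE 0.12, 95% confidence interval 0.06 to 0.58, limma adjusted p = 0.0599). *Tlr5* passed with replicate number as a block (limma adjusted p = 0.0341). It also passed without IL-2 replicate 1 (limma adjusted p = 0.0018), without NKTR-214 replicate 1 (0.0294) or without NKTR-214 replicate 3 (0.00821). Fits without 1 tumor can give far smaller limma adjusted p-values than the main fit, so the 2 are not comparable. For *Tlr13* the value was 9.33e-27 without IL-2 replicate 1 and 4.30e-05 with all 6 tumors.

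**Figure D2:**
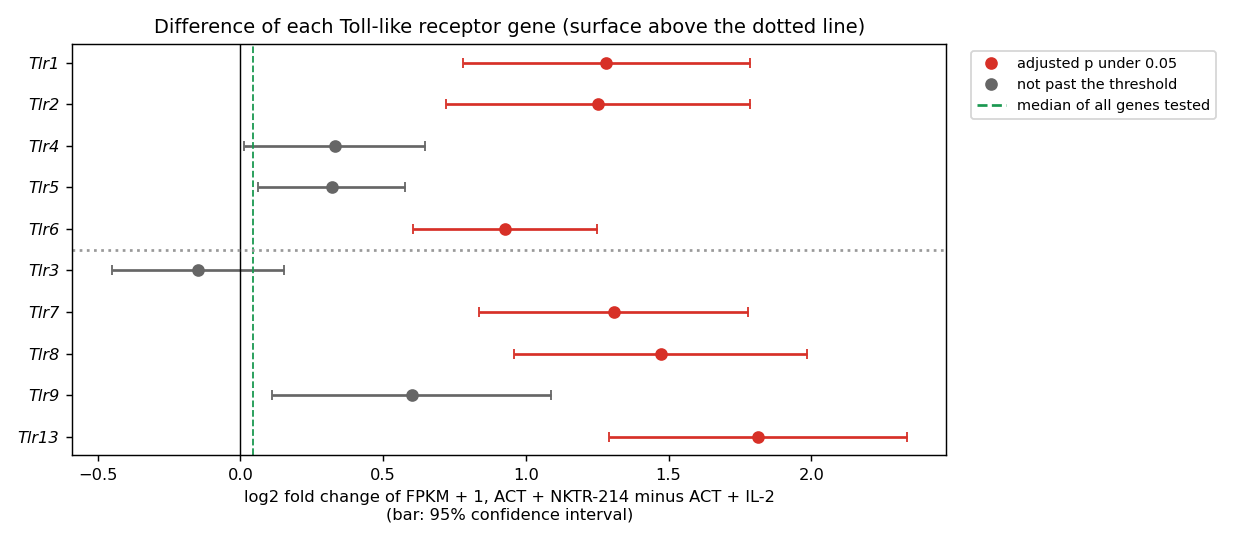
Log2 change of FPKM + 1 of each gene, NKTR-214 minus IL-2, with the 95% confidence interval from limma. Red marks genes past the adjusted p of 0.05, and the dashed line is the median of all genes tested, 0.05. The 6 red genes lie between 0.93 (Tlr6) and 1.81 (Tlr13), and Tlr3 is the one gene with a negative value, -0.15.

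Among the endosomal receptors, *Tlr13* (chromosome X, 106143204 to 106160493, plus strand) had the largest log2 change of the family. It had 6.22, 2.81 and 2.54 FPKM in IL-2 tumors and 12.8, 21.0 and 12.9 FPKM in NKTR-214 tumors. All NKTR-214 tumors had more than the highest IL-2 tumor. The mean rose 4.04-fold, from 3.86 ± 2.05 to 15.6 ± 4.70 FPKM (SD, n = 3 per group), with a log2 change of 1.81 (SE 0.25, limma adjusted p = 4.30e-05).

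*Tlr7* (167304929 to 167330558) and *Tlr8* (167242696 to 167264329) are neighbours on the minus strand of chromosome X, and their products are related RNA sensors. *Tlr8* had 4.87, 2.10 and 1.61 FPKM in IL-2 tumors and 8.62, 11.0 and 7.77 FPKM in NKTR-214 tumors. *Tlr7* had 2.99, 1.54 and 1.28 FPKM in IL-2 tumors and 5.34, 8.57 and 4.76 FPKM in NKTR-214 tumors. Neither gene overlapped between the groups. The log2 change was 1.47 for *Tlr8* (SE 0.24, limma adjusted p = 0.000241) and 1.31 for *Tlr7* (SE 0.22, limma adjusted p = 0.000325), with means 3.195-fold and 3.22-fold higher. Their ratio overlapped between the groups, with 0.613 to 0.790 *Tlr7* FPKM per *Tlr8* FPKM in IL-2 tumors and 0.613 to 0.777 in NKTR-214 tumors.

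*Tlr9* (chromosome 9, 106222598 to 106226883, plus strand), the CpG DNA receptor, had 3.63, 2.14 and 1.35 FPKM in IL-2 tumors and 4.14, 5.25 and 2.71 FPKM in NKTR-214 tumors. NKTR-214 replicate 3 lay below IL-2 replicate 1. The log2 change was 0.60 (SE 0.23, 95% confidence interval 0.11 to 1.09, limma adjusted p = 0.0617). The gene passed among genes with a mean of at least 1 FPKM (limma adjusted p = 0.0227) and with replicate number as a block (0.00806). It also passed without IL-2 replicate 1 (limma adjusted p = 4.46e-05) and without NKTR-214 replicate 3 (0.000179). The values without a tumor are not comparable with that of the main fit, as stated for *Tlr5*. The ratio of *Tlr7* to *Tlr9* FPKM was 0.822, 0.718 and 0.943 in IL-2 tumors and 1.29, 1.63 and 1.76 in NKTR-214 tumors. *Tlr9* was thus the higher of these genes in each IL-2 tumor and *Tlr7* in each NKTR-214 tumor (two-sided exact permutation p = 0.1, as small as 3 against 3 tumors allow; 0.267 after Benjamini-Hochberg adjustment over 8 ratios). These ratios were chosen after the values were seen, and 3 of the 8 did not overlap between the groups.

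*Tlr3* (chromosome 8, 45395665 to 45411080, minus strand), the TRIF-coupled receptor for duplex RNA, stood apart from the other members. It had the highest level of the family in each IL-2 tumor, with 10.05, 9.04 and 10.2 FPKM, and had 8.32, 9.23 and 8.58 FPKM in NKTR-214 tumors. The groups overlapped through IL-2 replicate 2 and NKTR-214 replicate 2. The log2 change was -0.15 (SE 0.14, 95% confidence interval -0.45 to 0.15, limma adjusted p = 0.473). It passed as lower with libraries scaled to a common 75th percentile (-0.25, limma adjusted p = 0.0434) and with quantile normalization (-0.26, limma adjusted p = 0.0357). Under these settings 26.2% and 32.1% of all genes, respectively, were called lower. Of its exon bases, 7.32% overlap the antisense gene *Gm45542*, and since the strand setting of the counting is not given in the sources used here, reads of the 2 genes cannot be told apart there.

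Promoter windows of RefSeq (GRCm38.p6, 250 bases before to 50 bases after a transcription start) were given for 8 of the 10 genes (not *Tlr4* and *Tlr7*), with 2 windows each for *Tlr1* and *Tlr6*, and were searched on both strands for 3 motifs: GAGGAA, the core of the site of the myeloid factor PU.1, GGG and TTCC with 3 bases of any kind between them for NF-κB, and GAAA repeated after 2 bases of any kind for interferon response elements. GAGGAA occurred in 4 of the 10 windows, those of *Tlr8*, *Tlr9*, *Tlr13* and the first of *Tlr1*, against 28.3% of all 32851 windows. The NF-κB letters occurred in 3 windows, of *Tlr2*, *Tlr3* and the second of *Tlr6*, against 5.56% of all windows. The interferon response letters occurred in 1 window, the first of *Tlr6*, in 2 matches that overlap each other, against 3.44% of all. Windows of *Tlr13* (chrX:106143025-106143324, plus strand) and *Tlr8* (chrX:167264280-167264579, minus strand), the endosomal genes with the largest log2 changes, of *Tlr2* (chr3:83841559-83841858, minus strand), the surface gene with the highest level in NKTR-214 tumors, and of *Tlr3* (chr8:45410331-45410630, minus strand), the gene with the lowest log2 change, are shown 5′ to 3′ with the motif matches in capitals. The matches begin 83 bases before the start in *Tlr13*, 77 in *Tlr8* (reverse strand), 173 in *Tlr2* and 211 in *Tlr3*. A match is a description of the letters, and binding was not measured.
Tlr13: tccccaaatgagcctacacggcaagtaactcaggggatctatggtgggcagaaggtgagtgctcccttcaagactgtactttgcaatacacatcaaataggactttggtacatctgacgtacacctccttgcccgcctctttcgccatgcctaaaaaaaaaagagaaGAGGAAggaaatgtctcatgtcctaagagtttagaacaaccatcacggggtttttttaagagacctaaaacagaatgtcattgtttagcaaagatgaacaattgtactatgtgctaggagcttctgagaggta
Tlr8: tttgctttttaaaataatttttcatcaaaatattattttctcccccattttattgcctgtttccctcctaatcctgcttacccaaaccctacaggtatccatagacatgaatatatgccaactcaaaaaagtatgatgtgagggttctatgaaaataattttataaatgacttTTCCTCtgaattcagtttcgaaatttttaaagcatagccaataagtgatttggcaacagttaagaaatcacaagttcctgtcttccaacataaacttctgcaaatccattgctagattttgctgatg
Tlr2: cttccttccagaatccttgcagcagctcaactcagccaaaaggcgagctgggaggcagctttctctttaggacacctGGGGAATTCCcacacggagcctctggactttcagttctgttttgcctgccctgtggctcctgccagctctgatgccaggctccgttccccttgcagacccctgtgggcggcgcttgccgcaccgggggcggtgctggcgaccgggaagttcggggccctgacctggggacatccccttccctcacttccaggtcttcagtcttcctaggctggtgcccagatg
Tlr3: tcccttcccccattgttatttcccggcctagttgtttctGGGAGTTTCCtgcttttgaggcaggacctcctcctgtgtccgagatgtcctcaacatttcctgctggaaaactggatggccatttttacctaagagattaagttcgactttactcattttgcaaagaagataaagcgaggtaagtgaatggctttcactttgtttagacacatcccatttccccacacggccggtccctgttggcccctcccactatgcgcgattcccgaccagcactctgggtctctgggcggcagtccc

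Of each class of receptors, surface and endosomal, 3 of 5 genes rose, and the median log2 change was 0.93 for the surface genes and 1.31 for the endosomal genes, against 0.05 for all genes tested; the difference between the classes was not tested. The FPKM of the 5 surface genes summed to 18.2, 11.3 and 11.0 in IL-2 tumors and to 28.8, 36.7 and 21.9 in NKTR-214 tumors. The endosomal genes summed to 27.8, 17.6 and 17.0 in IL-2 tumors and to 39.3, 55.1 and 36.7 in NKTR-214 tumors. Both sums were higher in every NKTR-214 tumor. Endosomal genes made up 60.4 to 61.0% of the family's FPKM in IL-2 tumors and 57.7 to 62.7% in NKTR-214 tumors, ranges that overlapped.

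The leading member was not the same in the groups. *Tlr3* held 21.9, 31.3 and 36.5% of the family's FPKM in IL-2 tumors and 12.2, 10.05 and 14.7% in NKTR-214 tumors. *Tlr13* held 13.5, 9.74 and 9.08% and then 18.9, 22.9 and 22.0%. *Tlr3* was the leading member in every IL-2 tumor, and *Tlr2* or *Tlr13* in every NKTR-214 tumor. With *Tlr3* left out, a step chosen after its values were seen, endosomal genes made up 38.2 to 49.4% in IL-2 tumors and 51.8 to 56.3% in NKTR-214 tumors. *Tlr4* held 13.6 to 21.2% in IL-2 tumors and 8.29 to 12.1% in NKTR-214 tumors, although its FPKM was higher in every NKTR-214 tumor.

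**Figure D3:**
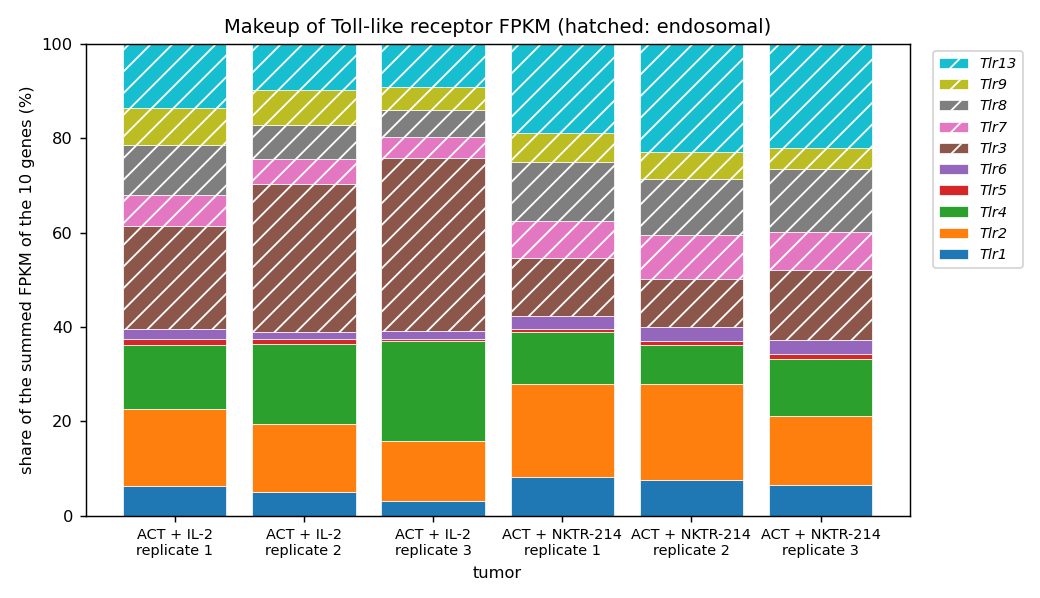
Share of the summed FPKM of the 10 genes held by each gene, in percent, with 1 bar per tumor and endosomal receptors hatched. Tlr3 takes 21.9 to 36.5% in the IL-2 tumors and 10.05 to 14.7% in the NKTR-214 tumors, and the whole endosomal share stays between 57.7 and 62.7% in all 6.

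Markers of several cell types, myeloid and other, were also higher in NKTR-214 tumors. All 12 macrophage and monocyte markers were higher in NKTR-214 tumors (median log2 change 1.74), and their FPKM summed to 1182, 540 and 409 in IL-2 tumors and to 2436, 3381 and 1867 in NKTR-214 tumors, with *Lyz2*, the lysozyme gene of myeloid cells, as the most abundant. Without IL-2 replicate 2, 7 of the 12 passed. Of 7 neutrophil markers, 4 reached the minimum for testing and all 4 rose (sums of 3.75 to 9.26 and 21.3 to 48.95 FPKM), while *Ly6g* was listed at 0 in all tumors but NKTR-214 replicate 2. Of 6 conventional dendritic cell markers, 4 rose, with sums of 7.11 to 11.2 and 18.7 to 29.3 FPKM. All 7 T cell markers rose (median log2 change 3.44), with sums of 10.5 to 26.0 and 142 to 308 FPKM. All 4 fibroblast markers rose (median log2 change 1.18, sums of 144 to 406 and 377 to 731 FPKM). Of 4 endothelial markers 1 was called higher, a share near the 20.7% of all genes, with sums of 19.9 to 42.8 and 31.0 to 63.4 FPKM.

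Plasmacytoid dendritic cells and B cells are known to express *Tlr7* and *Tlr9*, and their markers were uneven. *Siglech* and *Ccr9*, of plasmacytoid dendritic cells, had at most 0.101 FPKM in any tumor, and 0 of the 3 tested markers of that list passed; the list summed to 9.10 to 12.7 FPKM in IL-2 tumors and 11.0 to 12.5 FPKM in NKTR-214 tumors, mainly from *Tcf4*, which other cells also express, with *Cox6a2* at up to 3.11 and *Pacsin1* at up to 2.65 FPKM. The B cell gene *Ms4a1* was listed at 0 in 4 of the 6 tumors, and the 5 B cell markers used summed to 1.41 to 3.09 FPKM in IL-2 tumors and 4.32 to 6.48 FPKM in NKTR-214 tumors. The 1 gene of 3 tested there that rose was *Cd22*, with 0.520 to 1.16 FPKM in IL-2 tumors and 3.31 to 4.94 FPKM in NKTR-214 tumors, while *Cd79b* had at most 1.67 FPKM. The part of cell numbers in the receptor results was not tested.

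Per 1000 FPKM of the 12 macrophage and monocyte markers, *Tlr1*, *Tlr6*, *Tlr7*, *Tlr8* and *Tlr13* overlapped between the groups. *Tlr8* had 4.12, 3.89 and 3.95 in IL-2 tumors and 3.54, 3.26 and 4.16 in NKTR-214 tumors on this scale, and *Tlr13* had 5.26, 5.21 and 6.22 and then 5.27, 6.21 and 6.89. *Tlr2*, *Tlr3*, *Tlr4*, *Tlr5* and *Tlr9*, 5 of the 10, were lower in each NKTR-214 tumor, and 0 were higher. Since the markers rose, 83.8% of all genes tested were lower without overlap on this scale and 3.24% were higher. *Tlr9* had 3.07, 3.97 and 3.31 and then 1.70, 1.55 and 1.45, and *Tlr3* had 8.50, 16.7 and 25.0 and then 3.41, 2.73 and 4.59. The order depended on the markers taken as the base. Without *Lyz2* among them, *Tlr2* overlapped between the groups, and the other 4 were still lower (80.3% of all genes were lower and 3.94% higher). With *Csf1r*, the receptor of the macrophage growth factor, alone, 2 members were higher without overlap (*Tlr8* and *Tlr13*) and 4 were lower, against 4.16% and 76.9% of all genes. With *Adgre1*, the macrophage marker F4/80, alone, 5 were higher and 0 were lower, against 8.08% and 33.3% of all genes. These ratios are given as descriptions, with no test.

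**Figure D4:**
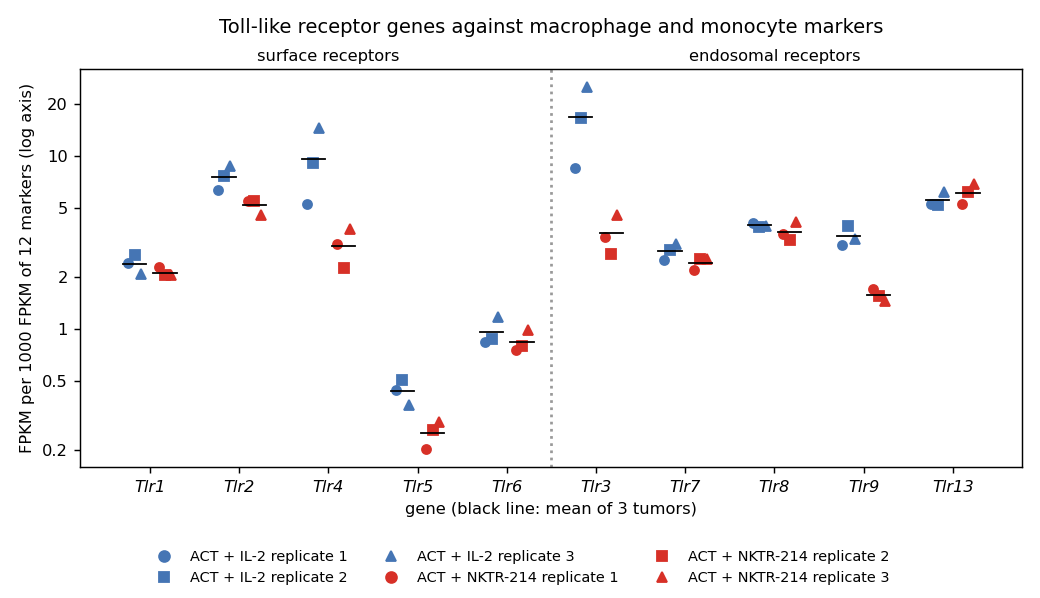
FPKM of each gene per 1000 FPKM of the 12 macrophage and monocyte markers of the same tumor, on a log axis, with blue symbols for IL-2, red symbols for NKTR-214 and a black line at each mean. Tlr1, Tlr6, Tlr7, Tlr8 and Tlr13 overlap between the groups, and the other 5 genes lie lower in NKTR-214 tumors.

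The genes that work with Toll-like receptors were read from 7 lists: the remaining mouse receptors, coreceptors and accessory proteins, adaptors, kinases and ubiquitin enzymes, transcription factors, negative regulators and induced genes. Of their 67 genes, 65 were tested, 32 were higher in NKTR-214 tumors (20.7% of all genes were) and 0 were lower (8.28% of all genes were). Without IL-2 replicate 2, 17 were higher, where 14.1% of all genes were. With libraries scaled to a common 75th percentile 34 were higher and 8 lower, where 23.0% of all genes were higher and 26.2% lower. Quantile normalization gave 34 higher and 9 lower, where 18.8% of all genes were higher and 32.1% lower. Of the remaining mouse receptors, *Tlr11*, which binds a profilin of protozoa, rose with a log2 change of 0.54 (limma adjusted p = 0.00772) and *Tlr12*, its relative, had 0.42 (adjusted p = 0.0744). *Tlr11* missed the threshold with quantile normalization (adjusted p = 0.077) and without IL-2 replicate 2 (limma adjusted p = 0.0682). *Tlr12* passed with replicate number as a block (limma adjusted p = 0.026), without IL-2 replicate 1 (0.00176) and without NKTR-214 replicate 3 (0.00365). Values without a tumor are not comparable with the main fit, as stated for *Tlr5*.

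Of 10 coreceptor and accessory genes 6 rose. *Cd36*, which hands lipids to TLR2 with TLR6, rose most, from 11.4 ± 6.58 to 43.1 ± 9.18 FPKM (SD, n = 3 per group), a log2 change of 1.93 (limma adjusted p = 4.63e-05). *Cd180*, a TLR4-like receptor of myeloid and B cells, had a log2 change of 1.21 (limma adjusted p = 0.000753). *Unc93b1*, whose product carries nucleic acid receptors to the endosome, rose from 37.5 ± 18.6 to 82.4 ± 22.7 FPKM (SD, n = 3 per group), a log2 change of 1.18 (limma adjusted p = 0.00286, and 0.0776 without IL-2 replicate 2). Of the chaperone genes neither passed: *Cnpy3* had a log2 change of 0.13 (limma adjusted p = 0.567) and *Hsp90b1*, which encodes gp96, had -0.30 (limma adjusted p = 0.295), a value that passed as lower after quantile normalization (-0.60, limma adjusted p = 0.00417) and after 75th percentile scaling (-0.41, limma adjusted p = 0.00566).

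The parts of the lipopolysaccharide receptor gave unlike values. *Cd14* rose from 4.25 ± 2.94 to 13.2 ± 5.22 FPKM (SD, n = 3 per group), a log2 change of 1.49 (limma adjusted p = 0.00208, and 0.0807 without IL-2 replicate 2), while its groups overlapped through IL-2 replicate 1 (7.63 FPKM) and NKTR-214 replicate 3 (7.24 FPKM). *Ly96*, which encodes MD-2, had 7.54 ± 1.12 and 7.52 ± 0.462 FPKM (SD, n = 3 per group), a log2 change of 0.00 (SE 0.15, limma adjusted p = 0.992). The ratio of *Tlr4* to *Ly96* FPKM was 0.724 to 0.784 in IL-2 tumors and 0.945 to 1.04 in NKTR-214 tumors (two-sided exact permutation p = 0.1, and 0.267 after adjustment over the 8 ratios). That of *Tlr4* to *Cd14* overlapped, with 0.820, 2.01 and 2.24 in IL-2 tumors and 0.446, 0.490 and 0.979 in NKTR-214 tumors (two-sided exact permutation p = 0.2).

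Of 6 adaptor genes 3 rose. *Myd88* had 12.8, 9.24 and 8.06 FPKM in IL-2 tumors and 17.5, 23.0 and 14.4 FPKM in NKTR-214 tumors, a log2 change of 0.81 (limma adjusted p = 0.00422, and 0.0569 without IL-2 replicate 2). *Ticam1*, which encodes TRIF, had 9.03, 6.85 and 9.58 FPKM and then 9.38, 8.72 and 9.17 FPKM. The groups of *Ticam1* overlapped, and its log2 change was 0.10 (SE 0.15, limma adjusted p = 0.674). *Pik3ap1*, which links Toll-like receptors to phosphoinositide kinase, had a log2 change of 1.06 (limma adjusted p = 0.00515), and did not pass without IL-2 replicate 2 (0.096) or with no minimum on the mean (0.0569). *Ticam2*, named after its values were seen, encodes TRAM, which links TLR4 to TRIF. It had 1.75, 0.912 and 0.763 FPKM in IL-2 tumors and 2.97, 4.32 and 2.97 FPKM in NKTR-214 tumors. It rose without overlap between the groups, with a log2 change of 1.06 (SE 0.18, limma adjusted p = 0.000311).

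Downstream, 4 of 19 kinase and ubiquitin enzyme genes rose, a share near the 20.7% of all genes (median log2 change of the list 0.21), led by *Ikbke*, a kinase of interferon induction, with 0.65 (limma adjusted p = 0.0103, and 0.0713 without IL-2 replicate 2). Of 6 transcription factor genes 5 rose, led by *Irf5*, a factor of inflammatory cytokine induction in macrophages, with 1.24 (limma adjusted p = 0.000199) and 28.0 ± 5.35 against 11.5 ± 3.89 FPKM (SD, n = 3 per group). Of 11 negative regulators 6 rose, led by *Nfkbia*, which encodes the NF-κB inhibitor IκBα, with 1.65 (limma adjusted p = 8.97e-05). Of 13 induced genes 11 were tested and 7 rose, led by *Nos2*, which encodes inducible nitric oxide synthase, with 12.3 ± 5.08 FPKM in IL-2 tumors and 53.9 ± 6.35 FPKM in NKTR-214 tumors (SD, n = 3 per group) and a log2 change of 2.11 (limma adjusted p = 1.96e-06). The list medians were 0.48 for the remaining receptors, 1.20 for coreceptors and accessory proteins, 0.45 for adaptors, 0.77 for transcription factors, 0.74 for negative regulators and 0.69 for induced genes, against 0.05 for all genes tested.

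**Figure D5:**
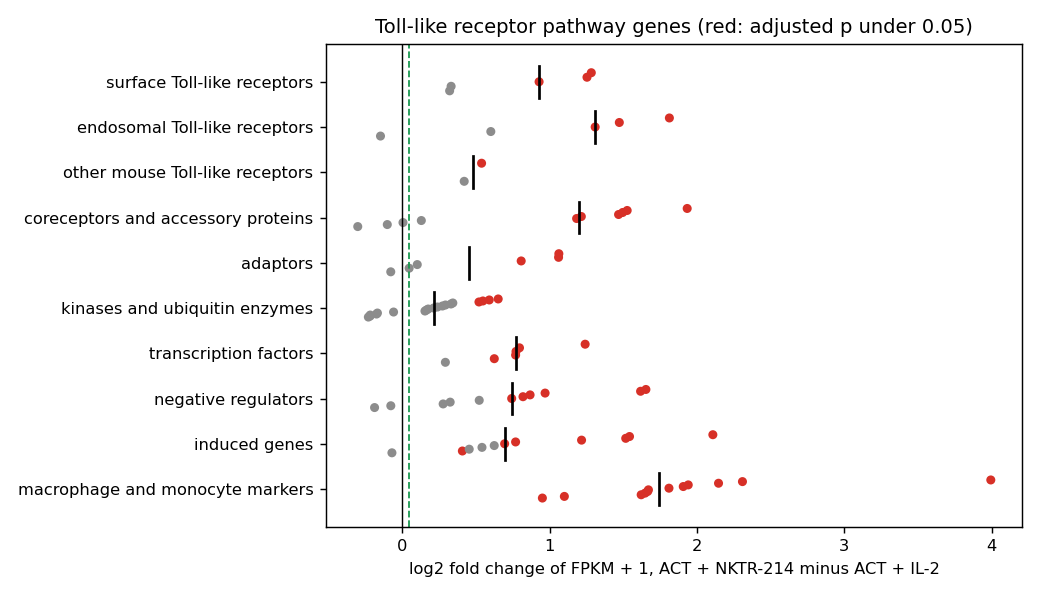
Log2 change of FPKM + 1, NKTR-214 minus IL-2, of every tested gene of the receptor and pathway lists and of the macrophage and monocyte markers, with 1 point per gene, red where the adjusted p is under 0.05 and a black bar at the list median. The dashed line is the median of all genes tested, 0.05. Among the lists drawn, the kinases and ubiquitin enzymes lie closest to it (median 0.21). The macrophage and monocyte markers have the highest median of the lists drawn, 1.74. Not drawn are the T cell markers (median 3.44) and the neutrophil markers (1.78), whose medians are higher.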

How the data were processed

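Whole B16-F10 tumors, 3 per group, gave 1 library each. Single-end reads of 50 bases were aligned by the authors with HISAT2 2.0.4 (GRCm38) and assigned to genes with HTSeq. The deposited values are linear FPKM, with no further scaling stated. The annotation and strand setting are not given in the sources used here. All 6 columns were used.

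Values were taken as log2(FPKM + 1), and genes with a mean of at least 0.1 FPKM were tested two-sided in limma 3.58.1 (R 4.3.3), moderated with an intensity trend and without a block. Benjamini-Hochberg adjustment ran over all genes tested, at a threshold of 0.05. Depth was estimated from the steps that single reads leave in low FPKM values and GENCODE vM21 exon lengths. Positions, exon overlaps and shared 50-base windows came from GENCODE vM21 (GRCm38) and promoters from RefSeq. Tables and plots came from matplotlib 3.10.9, numpy 2.4.6, pandas 2.3.3 and Python 3.11.15.

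The members and gene lists were chosen with earlier results of these data known. All members are named; of the pathway lists, 7 partner genes, *Myd88*, *Ticam1*, *Tlr11*, *Tlr12* and the called gene with the largest log2 fold change in each direction of each list; of the markers, those used as a check of tissue or cell type. 1 B cell marker was left out of its list and is not reported here. *Lyz2*, *Ticam2* and *Tcf4* were named after their values were seen. The settings varied were the pseudocount (0.1), the minimum mean (1 FPKM or none), 75th percentile scaling, quantile normalization, eBayes without the trend, unmoderated variances, a replicate block and leaving out each tumor. Running them on the pathway genes and macrophage and monocyte markers was added after seeing the data.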

Additional observations from a re-analysis of the deposited data

How the results depend on the processing

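With the variance of each gene taken from its own values, 0 members, 0 surface members, 0 endosomal members, 0 pathway genes and 0 macrophage and monocyte markers were called higher, and the adjusted p-values from limma of the called members were 0.0733 (*Tlr6*, log2 fold change 0.93), 0.0753 (*Tlr13*, 1.81), 0.0923 (*Tlr7*, 1.31), 0.0933 (*Tlr8*, 1.47), 0.111 (*Tlr1*, 1.28) and 0.13 (*Tlr2*, 1.25). Under 75th percentile scaling and under quantile normalization alike, 1 member (*Tlr3*, -0.25 and -0.26) was called lower and *Tlr4* was called higher (0.24 and 0.21), and 8 and 9 pathway genes were lower. In the same order, these settings called 26.2% and 32.1% of all genes lower, and 23% and 18.8% higher. Quantile normalization shifted the all-gene median by -0.145. A pseudocount of 0.1 moved the surface median to 1.40, and a minimum mean of 1 FPKM left *Tlr9* at 0.60 and past the threshold. No member changed sign under any alternative.

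With 1 tumor left out, 5 (without IL-2 replicate 2) to 8 members were called higher and 0 lower, 2 to 4 of them surface and 3 to 4 endosomal receptors, with 17 to 37 pathway genes and 7 to 12 macrophage and monocyte markers higher. Of all genes, 14.1 to 24.5% were higher and 4.47 to 14.0% lower in these fits. The log2 fold change ranged from 1.01 to 1.52 for *Tlr2*, 0.22 to 0.43 for *Tlr5* and 0.37 to 0.86 for *Tlr9*. No pairing of mice by replicate number is stated in the sources used here. Deviations of same-numbered tumors correlated at -0.21, -0.07 and 0.40, and not every tumor correlated best with its own number. These deviations are taken from means of 3 tumors and depend on one another, so the check cannot exclude pairing. With the replicate block, *Tlr5* (0.32, adjusted p = 0.0341 from limma) and *Tlr9* (0.60, adjusted p = 0.00806) passed, giving 8 members called higher. In that fit 21.8% of all genes were called higher and 8.66% lower. The estimated 15 reads of *Tlr5* in IL-2 replicate 3 limit its precision.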
